A study of Homo sapiens with 12 samples.

Results

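The genes described here encode the respiratory chain and the ATP synthase, the oxidative phosphorylation machinery of the inner mitochondrial membrane. Members were chosen by name among protein-coding genes: the 13 MT- genes of the mitochondrial genome and 87 nuclear genes for subunits of complexes I to V, 100 genes in all, of which 99 are among the 34318 genes that the deposited table could be matched to. The nuclear members comprise 37 genes of complex I, 4 of complex II, 10 of complex III, 18 of complex IV (with NDUFA4, which is named after complex I but is a subunit of complex IV) and 18 of complex V. One member, NDUFS1, was not analysed here because none of its transcripts was matched, and 92 members, all 13 MT- genes and 79 nuclear genes, had enough reads to be tested. The other 7 were NDUFA6, COX4I2, COX6A2, COX7A1, COX7B2, COX8C and ATP5MGL, whose matched transcripts were at or near 0. The value of NDUFA6 rests on 2 matched transcripts. Its main transcripts were not matched, so the value does not show that the gene is silent.

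The cells were HEK293T, an established and easily transfected line of human embryonic kidney origin, and each of the 4 groups had 3 libraries of messenger RNA. One experiment compared a control siRNA (siControl) with an siRNA against POLR3A (siPOLR3A), each collected 2 days after transfection. POLR3A is the largest subunit of RNA polymerase III, the enzyme that makes transfer RNAs and 5S ribosomal RNA. The other experiment compared vehicle, 0.1% DMSO, with 25 µM ML60218, a small-molecule inhibitor of the same polymerase, each for 4 hours. The labels do not say whether the 3 libraries of a group came from separate cultures, so p-values measure the spread between these libraries, which may be technical.

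Complexes I and II pass electrons to ubiquinone, complex III passes them to cytochrome c, and complex IV hands them to oxygen. Complexes I, III and IV pump protons as they do so, and complex V, the ATP synthase, lets the protons back to make ATP. Every complex except complex II contains proteins from both genomes. The mitochondrial genes are transcribed by a separate polymerase, POLRMT, into long precursors that are cut into messenger and transfer RNAs inside the organelle. The nuclear genes are transcribed by RNA polymerase II, and the binding sites of the factors NRF1, GABPA (an ETS factor) and YY1 are known from many of their promoters.

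Library totals ran from 37008325 to 49479476 estimated reads, of which 8.37% to 8.97% lay on transcripts that were not matched to a gene. POLR3A fell from 90.8 to 17.6 CPM (read counts scaled to a library of 1e+06 reads) in the siPOLR3A libraries, a log2 fold change of -2.36 ± 0.11 (SE, n = 3 per group, edgeR adjusted p = 1.94e-05). It was also lower with ML60218, at 86.5 CPM against 113 CPM in DMSO (-0.38 ± 0.04, edgeR adjusted p = 2.29e-04). Of the markers of other cell types, PTPRC was listed at 0 in every group and KRT19 and CD3E were at or near 0, while VIM, NEFL and NEFM, which HEK293 cells are known to express, had group means from 128 to 486 CPM. All 3 of these fell in siPOLR3A (log2 fold changes of -0.52, -0.68 and -1.39), and 3 of 4 tested epithelial markers, EPCAM, CDH1 and KRT18, rose there from means of 2.08, 12.0 and 29.2 CPM to 3.87, 16.6 and 32.2 CPM. Their part in the results was not tested. In bulk libraries, fewer cells of a type and less RNA per cell cannot be told apart.

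Some members share sequence or annotation, and this bears on how their reads can be read. The reading frames of MT-ATP8 and MT-ATP6 overlap by 46 bases, at chrM:8527-8572, and those of MT-ND4L and MT-ND4 by 7 bases, at chrM:10760-10766 (GRCh38, GENCODE 29). Each pair is carried on a single bicistronic messenger RNA, so a read across the overlap belongs to both genes. The stretches below, from GENCODE's transcript sequences, run 5′ to 3′ on the + strand of chrM, with bases of the overlap in capitals. The first line shows where the overlap begins within MT-ATP8, and the second shows that MT-ATP6 starts with the same bases. The third is the end of MT-ND4L and the fourth the start of MT-ND4.
MT-ATP8, chrM:8512-8541: accctgagaaccaaaATGAACGAAAATCTG
MT-ATP6, chrM:8527-8556: ATGAACGAAAATCTGTTCGCTTCATTCATT
MT-ND4L, chrM:10737-10766: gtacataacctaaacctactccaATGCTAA
MT-ND4, chrM:10760-10789: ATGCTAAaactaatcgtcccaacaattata

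UQCRHL is an intronless near-copy of UQCRH, and its few reads cannot be separated with certainty from those of its parent. In 10 of the 95 members with matched reads, under 50% of the reads lay on transcripts annotated as protein-coding. COX7A2 was seen through minor transcripts only, mostly a retained-intron one, with a mean of 371.3 reads per library against 4450.9 when unmatched neighbouring transcripts were assigned to it, and NDUFS3 had 123.1 reads on 1 processed transcript. Values of both genes describe those transcripts.

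The mitochondrial messages were far more abundant per length than the nuclear ones. In siControl the median level was 14900 TPM (the authors' length-adjusted unit, which sums to 1e+06 per library) over the 13 MT- genes and 188 TPM over the 86 nuclear members in the table. The lowest MT- level in siControl, MT-ND1 at 4764.0 ± 358 TPM (SD, n = 3), was several times that of the highest nuclear member, UQCRH at 984 ± 43.3 TPM. The highest MT- value, 100520 TPM for MT-ATP8, is of a transcript of 207 bases, and TPM of transcripts shorter than a sequencing fragment depends strongly on the effective length assigned to them.

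Medians over the tested nuclear members leave out NDUFS1 and the genes whose matched transcripts were too low to test. In siControl the median level was 338 TPM for complex V, 288 for complex IV, 144 for III, 141 for II and 125 for I. Complexes V and IV were the highest in the other groups too, at 330 and 352 TPM in siPOLR3A, 383 and 362 in DMSO and 392 and 348 in ML60218, so their order was not the same in every group. ATP5F1B, the catalytic beta subunit of the ATP synthase, was at 857 ± 19 TPM in siControl. The flavoprotein SDHA of complex II was at 122 ± 4.47 TPM and the haem protein CYC1 of complex III at 129 ± 4.74 TPM, a difference smaller than the sum of their SDs.

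Where complex IV has paralogues with tissue-restricted forms, the ubiquitous form carried nearly all the matched signal. In siControl, COX6A1 was at 615 ± 21.8 TPM and COX6A2 was listed at 0. COX6B1 was at 440 ± 13.9 TPM and the testis form COX6B2 at 2.26 ± 0.40 TPM. COX4I1 was at 486 ± 19.2 TPM with COX4I2 listed at 0, and the heart and muscle form COX7A1 was near 0 in every group. The 3 genes ATP5MC1, ATP5MC2 and ATP5MC3, which encode the same mature c subunit of the ATP synthase rotor behind different targeting sequences, were all expressed, at 287 ± 6.52, 447 ± 9.71 and 411 ± 14.8 TPM.

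Knockdown of POLR3A left all 13 mitochondrial messages uncalled, and it lowered a set of nuclear ones by small amounts, with a few larger falls in complex I. Of the 79 nuclear members tested, 34 fell and 8 rose at an adjusted p under 0.05 in edgeR's quasi-likelihood test. That is 43% lower and 10.1% higher, where 29.2% of all 15404 genes tested were called lower, 27.4% higher and 56.6% in either direction. Among all genes at a mean log2 CPM of 4 or more, a level most members exceed, 39.5% were called lower, so the members' share of falls was close to that background. Among genes with a transcript length under 1000 bases 16.3% were called lower. The median log2 fold change was -0.08 over the nuclear members, -0.04 over the MT- genes and 0.01 over all genes. Of the 34 falls, 5 reached 20% or more. Upper quartile scaling, under which the median of all genes was 0.06, gave 15 rises and 27 falls, and total counts gave 13 rises and 30 falls.

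Reads of the 13 MT- genes together made up 8.22%, 9.73% and 8.16% of matched reads in siControl and 8.64%, 8.81% and 8.98% in siPOLR3A. The siPOLR3A values lay inside the siControl range. No MT- gene was called, and none had an unadjusted p under 0.05 in edgeR. DESeq2 called none either. The second siControl library was the highest of its group for all 13 MT- genes, and without it 3 MT- genes were called higher and the MT- median was 0.05. The nuclear members together made up 0.941%, 0.948% and 0.968% of the reads outside the MT- genes in siControl and 0.924%, 0.911% and 0.910% in siPOLR3A, with no overlap.

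**Figure D1:**
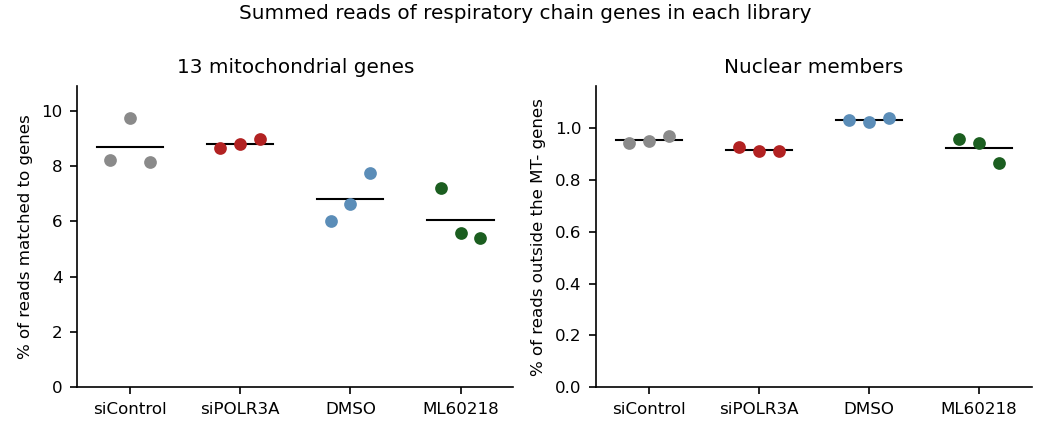
Summed reads of the 13 MT- genes as a percentage of matched reads (left) and of the nuclear members as a percentage of reads outside the MT- genes (right), with 1 point per library and a line at the group mean. MT- shares overlap within each experiment, while nuclear shares are lower in both treated groups than in their controls without overlap.

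Complex I held the largest falls. NDUFB10, an accessory subunit of the membrane arm, was at 132, 134 and 142 CPM in siControl and at 49.8, 51.3 and 49.5 CPM in siPOLR3A. The groups were far apart, and the log2 fold change was -1.44 ± 0.03 (SE, edgeR adjusted p = 4.77e-13). Both protein-coding transcripts of NDUFB10 were lower, with group means of 70.1 against 28.7 CPM for the first and 59.2 against 16.5 CPM for the second. Its retained-intron transcript was at 3.41, 4.37 and 3.99 CPM in siControl and at 4.75, 4.10 and 4.00 CPM in siPOLR3A, values that overlap.

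NDUFB9, a membrane-arm subunit of the LYR family, was at 88.2, 84.9 and 97.8 CPM in siControl and at 49.3, 50.6 and 49.4 CPM in siPOLR3A. The groups did not overlap, and the log2 fold change was -0.86 ± 0.05 (edgeR adjusted p = 1.13e-07). The membrane-arm subunits NDUFB4, NDUFC2 and NDUFB5 fell by 0.43, 0.36 and 0.31 on the log2 scale. Falls of about the size of the last were not limited to NDUFB and NDUFC genes, since NDUFA5 fell by 0.30 and NDUFA8 by 0.27. Of all genes 29.2% were called lower, and of genes at a log2 CPM of 4 or more 39.5%. In all, 13 of the 35 complex I nuclear members tested fell (37.1%) and 4 rose (11.4%), with a median log2 fold change of -0.07. NDUFB2, another membrane-arm subunit, went the other way, from 40.7, 41.3 and 41.8 CPM to 49.3, 46.5 and 45.6 CPM (log2 fold change 0.19 ± 0.04, edgeR adjusted p = 6.18e-04). The smaller rise of NDUFA11, 0.08 ± 0.03 with an edgeR adjusted p of 0.0446, turned to -0.08 once a trend with GC content and length was removed.

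In complex II, the membrane anchor SDHC fell while its partner anchor SDHD was not called. SDHC was at 172, 172 and 176 CPM in siControl and at 124, 129 and 130.2 CPM in siPOLR3A, a log2 fold change of -0.44 ± 0.03 (edgeR adjusted p = 5.37e-09). SDHB, the iron-sulphur subunit, fell by 0.13 on the log2 scale, and SDHA had a log2 fold change of -0.03 ± 0.03 and SDHD of -0.07 ± 0.03, neither called.

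The median log2 fold change in complex III was -0.16, and no nuclear member was called higher. Falls were called in 7 of 10 tested (70%), against 29.2% of all genes and 39.5% at a log2 CPM of 4 or more. The largest was in UQCRH, the hinge protein, from 279, 276 and 282 CPM to 237, 234 and 232 CPM, a log2 fold change of -0.25 ± 0.02 (edgeR adjusted p = 3.17e-07). UQCRB, UQCRFS1 (the Rieske iron-sulphur protein), UQCRC2, CYC1 and UQCRC1 fell by 0.12 to 0.20 on the log2 scale, and UQCR11 by 0.17. MT-CYB, the mitochondrially encoded cytochrome b of the same complex, had a log2 fold change of -0.12 ± 0.11 and was not called.

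Complex IV was the least one-sided, with 3 rises (23.1%) and 2 falls (15.4%) among 13 tested nuclear members. Over all genes 27.4% rose and 29.2% fell. The median log2 fold change of complex IV was -0.04, which was 0.02 under upper quartile scaling and 0.01 under scaling by totals. COX6C, a small membrane subunit, rose from 79.7, 76.5 and 83.8 CPM to 101, 95.7 and 98.4 CPM, a log2 fold change of 0.30 ± 0.04 (edgeR adjusted p = 6.36e-06). Of its matched reads 10.9% lay on protein-coding transcripts, and its main transcript, annotated for nonsense-mediated decay, went from a mean of 71.6 to 88.1 CPM, so its values here mostly describe that transcript. COX6A1 and COX8A rose by 0.11 and 0.09 on the log2 scale, although COX8A had a value of -0.02 once the GC and length trend was removed. The falls were in COX7A2L, the supercomplex factor that joins complexes III and IV, and in COX5A, by 0.20 and 0.17 on the log2 scale.

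For the ATP synthase, 10 of 17 tested nuclear members fell (58.8%) and 1 rose (5.88%), with a median log2 fold change of -0.12. Over all genes those shares were 29.2% and 27.4%, and 39.5% of genes at a log2 CPM of 4 or more fell. ATP5MC1 showed the largest fall, from 71.4, 76.2 and 78.7 CPM to 57.8, 60.0 and 64.3 CPM (log2 fold change -0.31 ± 0.05, edgeR adjusted p = 1.07e-04), and the 2 other c-subunit genes fell less, by 0.12 for ATP5MC2 and 0.15 for ATP5MC3. ATP5PO, the stalk subunit that confers oligomycin sensitivity, fell by 0.23. ATP5F1D, the delta subunit of the central stalk, rose from 28.01, 27.3 and 28.7 CPM to 31.3, 30.6 and 32.0 CPM (0.16 ± 0.04, edgeR adjusted p = 6.35e-03), but removing the GC and length trend gave -0.13.

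**Figure D2:**
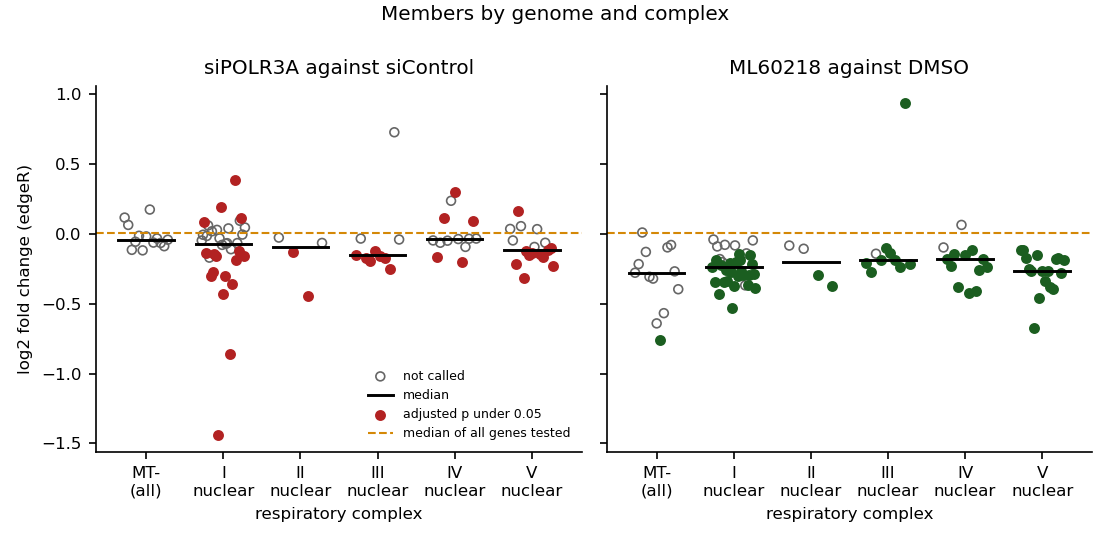
Log2 fold changes of 91 tested members (those with a standard error under 0.5) in the POLR3A knockdown (left) and with ML60218 (right), for the MT- genes and for the nuclear members of each complex. Filled points passed the adjusted p threshold, solid lines are medians over all tested members and the dashed line is the median of all genes tested. With ML60218 nearly all nuclear members lie below the dashed line. With siPOLR3A they lie on both sides of it, more of them below, with NDUFB10 far below. Of all 79 nuclear members tested, 60 had a value below 0 with siPOLR3A.

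ML60218 lowered most of the nuclear members after 4 hours. At an adjusted p under 0.05, 63 of 79 nuclear members fell and 1, the near-copy UQCRHL, rose. That is 79.7% lower, where 20.9% of all 15461 genes tested were called lower, 18.1% higher and 39% in either direction. The background share of lower calls was 32.2% among genes at a mean log2 CPM of 4 or more, and 28% among genes with a transcript length under 1000 bases. The falls were small: 46 of the 63 were under 20%. The median log2 fold change was -0.23 over the nuclear members and 0.01 over all genes, and 77 of the 79 values were below 0.

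The nuclear members together made up 1.03%, 1.02% and 1.04% of reads outside the MT- genes in DMSO and 0.958%, 0.941% and 0.866% with ML60218. The groups do not overlap, and the third ML60218 library is the lowest. That library was also the lowest of its group in 74 of the 79 nuclear members. Without it, 55 nuclear members fell and the median was -0.17. Leaving out the first DMSO library left 43 lower, the fewest of the 6 single-library removals, with a median of -0.21. Scaling by total counts, under which the median of all genes was 0.08, left 44 nuclear members lower with a median of -0.15.

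Transcript length went along with the size of the fall. The 45 nuclear members with a length under 1000 bases had a median log2 fold change of -0.26 with 40 called lower, and the 34 longer ones had a median of -0.18 with 23 called lower. Over all genes tested, those under 1000 bases had a median of -0.09. When a trend with GC content and length, fitted over all genes, was removed, 66 nuclear members were called lower and their median was -0.25, with the median of all genes at -0.04. No such difference by length was seen for siPOLR3A, with medians of -0.08 in both length classes.

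All 17 tested nuclear members of complex V fell, with a median of -0.27, where 20.9% of all genes were called lower. ATP5MC1 was at 97.0, 93.2 and 92.6 CPM in DMSO and at 68.3, 61.0 and 48.3 CPM with ML60218, a log2 fold change of -0.67 ± 0.12 (SE, n = 3 per group, edgeR adjusted p = 9.87e-03). Most of that difference was in 1 of its protein-coding transcripts, which went from a mean of 47.9 to 24.6 CPM, while the next most abundant was at 16.4 and 14.1 CPM. ATP5MC3 was at 251, 250.02 and 257 CPM in DMSO and at 195, 191 and 165 CPM with ML60218 (-0.46 ± 0.06, edgeR adjusted p = 7.83e-04). The third c-subunit gene, ATP5MC2, fell by 0.15, and the catalytic subunits ATP5F1A and ATP5F1B fell by 0.12 each.

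In complex I, 25 of 35 tested nuclear members fell (71.4%, against 20.9% of all genes) and none rose, with a median of -0.24. NDUFB3, a membrane-arm subunit, was at 86.3, 86.1 and 87.6 CPM in DMSO and at 68.9, 61.9 and 49.8 CPM with ML60218 (log2 fold change -0.53 ± 0.11, edgeR adjusted p = 0.0147). NDUFA2, a subunit with a thioredoxin-like fold in the matrix arm, went from 43.4, 40.9 and 39.3 CPM to 34.1, 31.2 and 26.5 CPM (-0.43 ± 0.09, edgeR adjusted p = 5.82e-03). The groups did not overlap for either gene. NDUFB10 and NDUFB9, the genes with the largest called falls after POLR3A knockdown, fell by 0.24 and 0.19 here. NDUFV1, the core subunit that binds NADH, had a value of -0.05 ± 0.04 and was not called.

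**Figure D3:**
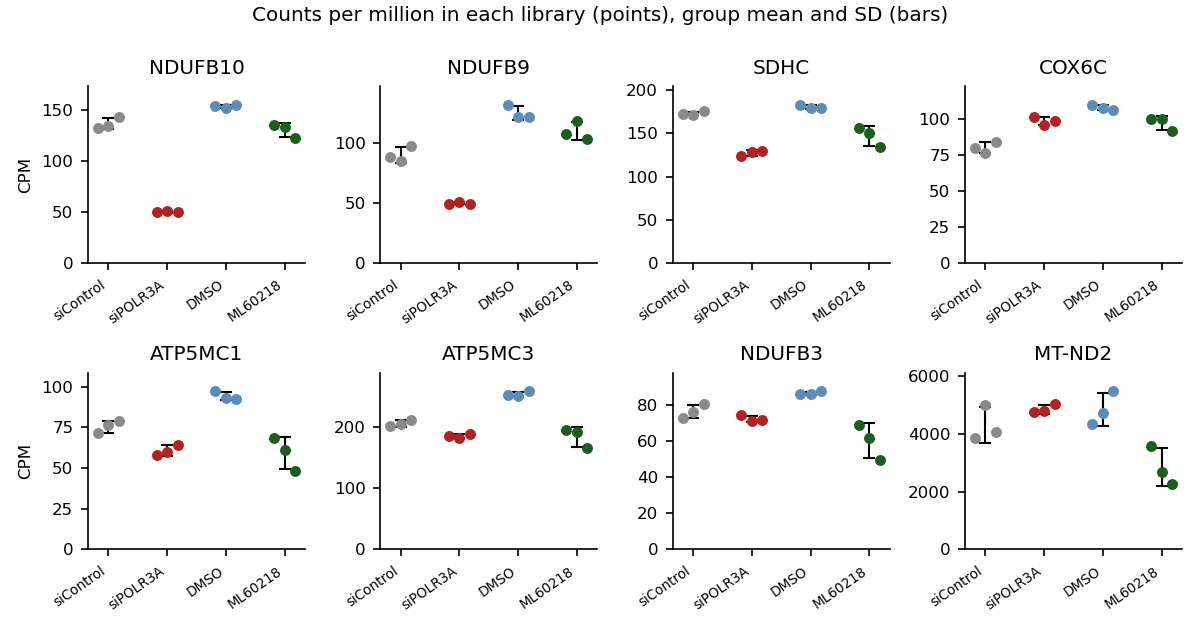
CPM of 8 members in each of the 12 libraries, with the mean and SD of each group; the axes start at 0. NDUFB10, NDUFB9 and SDHC are well below siControl in siPOLR3A, COX6C is above it, and ATP5MC1, ATP5MC3, NDUFB3 and MT-ND2 are below DMSO with ML60218. CPM were scaled within each experiment, so levels are to be read within a pair of groups.

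Both membrane anchors of complex II fell with ML60218 and the catalytic subunits SDHA and SDHB were not called. SDHD was at 109, 113 and 109 CPM in DMSO and at 88.2, 89.6 and 77.9 CPM with ML60218 (log2 fold change -0.37 ± 0.05, edgeR adjusted p = 7.07e-04). SDHC fell by 0.30, and SDHA and SDHB had values of -0.09 ± 0.04 and -0.11 ± 0.05.

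Falls were called in 8 of 10 tested nuclear members of complex III (80%), with a median of -0.19. In complex IV they were called in 11 of 13 (84.6%), with a median of -0.18. Of all genes 20.9% were called lower. UQCR10, a small subunit of complex III, went from 98.2, 95.8 and 97.2 CPM to 86.5, 83.9 and 70.1 CPM (-0.28 ± 0.07, edgeR adjusted p = 0.0186), and UQCRH fell by 0.24. COX7B, a small subunit of complex IV, went from 165, 156 and 158 CPM to 129.9, 132 and 98.8 CPM (-0.41 ± 0.12, edgeR adjusted p = 0.0449). That call was lost under 6 of 16 alternatives, and over all 16 its log2 fold change lay between -0.48 and -0.29. COX7A2 fell by 0.42 through its minor transcripts and by 0.36 with neighbouring transcripts assigned. COX4I1, the largest nuclear-encoded subunit of the enzyme, had a value of -0.10 ± 0.04 and was not called.

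The mitochondrial messages were more variable in this experiment. They made up 6.02%, 6.63% and 7.73% of matched reads in DMSO and 7.22%, 5.56% and 5.38% with ML60218, values that overlap. Their median log2 fold change was -0.28, and 12 of 13 values were below 0, but MT-ND2 alone was called. All 13 MT- genes were highest in the first of the ML60218 libraries, and all 13 were lowest in the first of the DMSO libraries. Without that ML60218 library 7 MT- genes were called lower and the median was -0.45. Leaving out any 1 of the other 5 libraries left no MT- gene called, with medians from -0.37 to -0.17.

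MT-ND2, a core subunit of the membrane arm of complex I, was at 4326, 4697 and 5456 CPM in DMSO and at 3584, 2692 and 2271 CPM with ML60218. The log2 fold change was -0.76 ± 0.21 (edgeR adjusted p = 0.0467), and the call was lost under 9 of 16 alternatives. Over all 16 the log2 fold change ran from -0.96 to -0.62 and the adjusted p from 2.40e-03 to 0.152. MT-ND1 and MT-ND3 also had no overlap between the groups, with log2 fold changes of -0.64 ± 0.23 and -0.57 ± 0.18 and edgeR adjusted p-values of 0.0961 and 0.0658. At the other end MT-CO1, the subunit with the oxygen-binding centre of complex IV, had a value of 0.01 ± 0.14. Over all genes, 51.9% had no overlap between the groups in this comparison, and 63.4% had none in the siPOLR3A comparison, where no MT- gene did.

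Dividing each gene's reads by the sum over the 13 genes removes the variation in the total mitochondrial share, although the shares must add up and so are not independent. MT-ND2 took 7.06%, 6.92% and 6.84% of the mitochondrial reads in DMSO and 4.999%, 4.94% and 4.41% with ML60218. MT-CO1 took 16.9%, 16.5% and 16.8% in DMSO and 18.9%, 19.9% and 20.9% with ML60218. Neither gene's groups overlapped. The shares of MT-ND1, MT-ATP6, MT-CO3, MT-ND3 and MT-CYB were also lower with ML60218 without overlap, and those of MT-CO2, MT-ND4L and MT-ND4 were higher. MT-ATP8, MT-ND5 and MT-ND6 (which is read from the other DNA strand) overlapped between the groups.

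After POLR3A knockdown the composition moved less and in part the other way. The share of MT-ND2 was 4.64%, 4.99% and 4.89% in siControl and 5.58%, 5.50% and 5.68% in siPOLR3A, and that of MT-CO1 was 17.8%, 17.4% and 17.3% against 16.3%, 16.9% and 16.4%. MT-ATP8 and MT-ATP6 were also higher without overlap, and MT-ND5 and MT-CYB lower. The ratio of MT-ND2 to MT-CO1 reads was 0.260, 0.287 and 0.283 in siControl, 0.343, 0.327 and 0.347 in siPOLR3A, 0.418, 0.419 and 0.407 in DMSO and 0.265, 0.248 and 0.211 with ML60218. It was higher than its control after knockdown and lower than its control with the inhibitor, with no overlap in either case. This ratio was chosen after its values were seen and was not tested. All 3 DMSO values were above all siControl and siPOLR3A values, and 1 ML60218 value lay inside the siControl range and 2 below it.

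**Figure D4:**
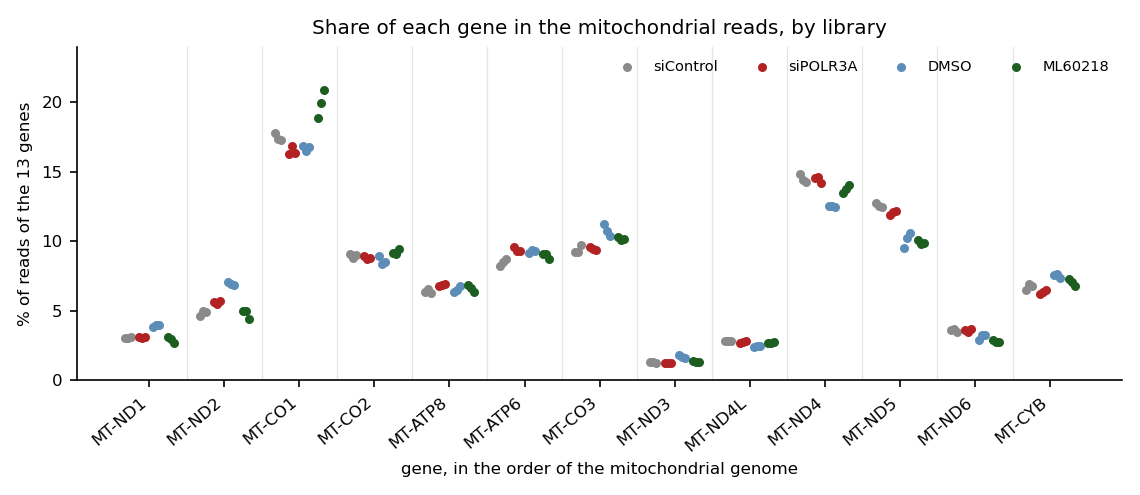
Percentage of the reads of the 13 MT- genes that each gene took, by library, with genes in the order of the mitochondrial genome. MT-ND1 and MT-ND2 are highest in DMSO, MT-CO1 is highest with ML60218, and MT-ND2 is higher in siPOLR3A than in siControl.

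The comparisons have no library in common, so their calls can be set side by side. Of the 34 nuclear members that fell after knockdown, 29 also fell with ML60218, which is 85.3% of the first list and 46% of the second. Of all 79 nuclear members 79.7% fell with ML60218, so the first share is near that of the members as a whole. Another 27 fell with ML60218 and were not called after knockdown. The 7 members that rose after knockdown and fell with ML60218 were NDUFB2, NDUFA11, NDUFS8, COX6A1, COX6C, COX8A and ATP5F1D.

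Whether the 2 treatments differed was tested as an interaction in a fit of all 12 libraries, where a positive value means that the log2 fold change was higher after knockdown. Of all 15780 genes, 50.9% differed, 24.5% positive and 26.4% negative. Among the 92 members tested, 32 were positive (34.8%) and 3 negative (3.26%). NDUFB10 had the largest negative difference, -1.20 ± 0.06 (edgeR adjusted p = 1.30e-10), followed by NDUFB9 at -0.67 and NDUFB5 at -0.22, all 3 in the membrane arm of complex I. For NDUFB5, 46.8% of matched reads lay on protein-coding transcripts. COX6C, counted mostly on the transcript annotated for decay, was positive at 0.46 ± 0.06 (edgeR adjusted p = 7.82e-06) and NDUFB2 at 0.47 ± 0.07 (edgeR adjusted p = 1.93e-05). By complex, 8 of 13 nuclear members of complex IV, 9 of 17 of complex V, 11 of 35 of complex I, 2 of 10 of complex III and 1 of 4 of complex II were positive. MT-ND2 was the 1 positive MT- gene, at 0.94 ± 0.24. The knockdown ran for 2 days and the inhibitor for 4 hours, each in its own experiment with its own control. Agent, time and experiment therefore cannot be told apart in these differences.

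**Figure D5:**
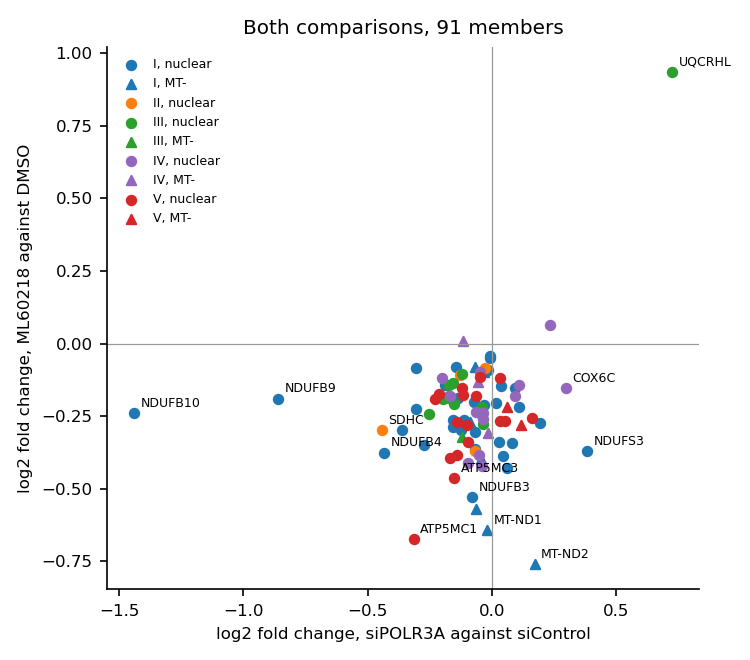
Log2 fold change of the 91 tested members with a standard error under 0.5 after POLR3A knockdown (horizontal) and with ML60218 (vertical), coloured by complex, with circles for nuclear and triangles for MT- genes. Most members lie below the horizontal zero line, with NDUFB10 and NDUFB9 apart on the left and MT-ND2 at the bottom right; NDUFS3 and UQCRHL are low-count or shared-read values.

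Of 36 tested genes for mitochondrial DNA maintenance, transcription and RNA processing, 11 rose and 13 fell after knockdown (median log2 fold change -0.03), and 3 rose and 15 fell with ML60218 (median -0.10). That is 30.6% higher and 36.1% lower after knockdown, near the 27.4% and 29.2% of all genes. With ML60218 it is 8.33% higher and 41.7% lower, where all genes had 18.1% and 20.9%. Among genes at a log2 CPM of 4 or more, 39.5% were called lower after knockdown and 32.2% with ML60218. LRPPRC, which with its partner SLIRP stabilises mitochondrial messenger RNAs, fell by 0.89 after knockdown, and GRSF1, an RNA granule protein, by 0.61. TFB2M, the initiation factor of the mitochondrial polymerase, rose by 0.41 and the ribosomal RNA methyltransferase MRM2 by 0.36. With ML60218, FASTKD5, which is needed to process certain mitochondrial precursor RNAs, fell by 0.92 and the termination factor MTERF1 fell by 0.66, while TFB1M and MTPAP, the mitochondrial poly(A) polymerase, rose by 0.24 and 0.19.

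Of 17 tested regulators of the nuclear respiratory genes, 5 rose and 6 fell after knockdown, and 5 rose and 1 fell with ML60218. The shares called higher and lower were 29.4% and 35.3% after knockdown and 29.4% and 5.88% with ML60218, beside the 27.4% and 29.2% and the 18.1% and 20.9% of all genes. PPARGC1A, the coactivator known as a driver of mitochondrial biogenesis, fell by 0.72 after knockdown and rose by 0.79 with ML60218. ESRRA, a nuclear receptor that works with it, fell by 0.63 after knockdown, and GABPA and HIF1A rose by 0.46 and 0.31. With ML60218 MYC rose by 0.74 and SP1 by 0.13, and YY1 fell by 0.15.

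Assembly factors, which build the complexes without being part of them, had 11 rises and 22 falls among 56 tested after knockdown, and 5 rises and 23 falls with ML60218. Falls thus made up 39.3% after knockdown and 41.1% with ML60218, where 29.2% and 20.9% of all genes were called lower. The first share is near the 39.5% of genes at a log2 CPM of 4 or more, and 32.2% of such genes fell with ML60218. Some of these factors lie below that level. Rises made up 19.6% and 8.93%, against 27.4% and 18.1% of all genes. TMEM126A (complex I) and COX14 (complex IV) fell by 0.76 and 0.64 after knockdown, and COA7 and SDHAF1 rose by 0.57 and 0.55. With ML60218 the complex IV factors COX16 and PET100 fell by 0.78 and 0.65, and SDHAF4 and COX19 rose by 0.76 and 0.47. Among 20 tested electron carriers, ubiquinone synthesis enzymes and related genes, 3 rose and 12 fell after knockdown, and 2 rose and 5 fell with ML60218. Their falls made up 60% and 25%, against 29.2% and 20.9% of all genes. Among genes at a log2 CPM of 4 or more those shares were 39.5% and 32.2%. Their rises made up 15% and 10%, against 27.4% and 18.1% of all genes. CHCHD4, the oxidoreductase of the intermembrane space import route, fell by 1.35 and ETFA by 0.56 after knockdown, with PDSS1 and COQ4 rising by 0.49 and 0.21. With ML60218 CYCS, cytochrome c itself, fell by 0.29 and DMAC1 by 0.30, and COQ5 and CHCHD4 rose by 0.22 and 0.16.

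Since most nuclear members fell together with ML60218, their promoters were searched for short motifs of factors known from this class. RefSeq promoters (GRCh38.p14, 250 bases before to 50 after the annotated start, the first entry of each symbol) were at hand for 69 members. The motifs were GCGCATGC for NRF1, CCGGAAG for ETS factors and AAGATGGCG for YY1, on both strands, where the NRF1 motif can overlap its own match on the other strand. At least 1 of the 3 was in 44.9% of the members' promoters and in 14.6% of all 27305 promoters. That background was not limited to expressed or protein-coding genes, so the shares do not show an excess particular to the members. For each factor the shares were 18.8% against 3.27% for NRF1, 29% against 10.7% for ETS and 11.6% against 1.85% for YY1.

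Windows of 30 bases upstream of the start show the motif (in capitals, 5′ to 3′ on the gene's strand) in members that fell with ML60218. Of the members shown, SDHD was not called after knockdown. Not all members with a motif fell with ML60218: SDHB, with an NRF1 and an ETS motif, was not called. SDHD carries an NRF1 and an ETS motif, NDUFB4 carries the NRF1 motif, and ATP5MK and UQCRH carry the ETS motif.
SDHD, chr11:112086752-112086781 (+ strand), NRF1: cagctgtgtttGCGCATGCgcgacgggtgt
SDHD, chr11:112086785-112086814 (+ strand), ETS: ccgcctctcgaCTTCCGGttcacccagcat
NDUFB4, chr3:120596166-120596195 (+ strand), NRF1: aagagcacttcGCGCATGCgcatatcaccg
ATP5MK, chr10:103396617-103396646 (- strand), ETS: gtgcaattcttCCGGAAGtgtgggcgggct
UQCRH, chr1:46303641-46303670 (+ strand), ETS: agtgtgccgcaCTTCCGGccagatcgccgg
With ML60218 the 29 tested members with any of these motifs had a median log2 fold change of -0.22 with 21 called lower, and the 35 without had a median of -0.23 with 30 called lower. By factor, 11 of 12 with the NRF1 motif were called lower (median -0.25) and 40 of 52 without (-0.22), 14 of 19 with the ETS motif (-0.24) and 37 of 45 without (-0.21), and 3 of 7 with the YY1 motif (-0.14) and 48 of 57 without (-0.24). After knockdown 15 of the 29 with any motif were called lower (median -0.10) and 12 of the 35 without (-0.07). By factor, 8 of 12 with the NRF1 motif were called lower there (-0.12) and 19 of 52 without (-0.06). For ETS these were 7 of 19 (-0.07) and 20 of 45 (-0.10), and for YY1 5 of 7 (-0.12) and 22 of 57 (-0.07). None of these splits was tested. A match is a string of letters in this window and not a measured binding site.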

How the data were processed

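Strand-specific libraries of messenger RNA from HEK293T cells were sequenced by the authors (12 libraries), and the deposited table gives estimated counts and TPM for each transcript and library, per the file headers. The submitters' processing notes name bcl2fastq 2.20, Trim Galore, DESeq2 and hg38, and the quantification settings are not given in the sources used here. Of 194142 transcripts, 158359 (81.6%) were matched to GENCODE 29 by stable identifier, and the estimated counts of a gene's matched transcripts were added up and rounded. Genes passed edgeR's filterByExpr (minimum count 10, minimum total 15) within each comparison, were scaled by TMM and tested with the robust quasi-likelihood test (edgeR 4.0.16, R 4.3.3) at a Benjamini-Hochberg adjusted p of 0.05 over all genes tested. CPM use TMM library sizes of their own experiment, and errors of fold changes are standard errors on the log2 scale. The difference between treatments is an interaction in a fit of all 12 libraries.

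Members follow from gene names, and the members and other gene lists were chosen with earlier results of these data known. The genes named are all MT- genes, the 2 largest called rises and falls per complex and comparison whose mean log2 CPM was 3 or more and whose groups do not overlap, 3 differences on each side, paralogue sets, SDHA and CYC1, and the 2 largest called rises and falls of each further list. Other genes are named beside these to complete a complex or a count, and were chosen after their values were seen. Alternatives were RLE, upper quartile and total count scaling, scaling without MT- genes, no filter, DESeq2 1.42.0, a replicate block, neighbouring transcripts, an isoform length offset, a GC and length trend, TPM rescaled to nuclear genes, and leaving out each library. One tested nuclear member is counted in all totals but not reported here by itself. No 2 libraries held identical values.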

Additional observations from a re-analysis of the deposited data

Results flagged for a closer look

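The response to POLR3A knockdown differed from the response to ML60218, by the interaction test in edgeR over all 15780 genes, for 17 of the members named by the rule. Of all 15780 genes 50.9% were called in this test, 24.5% positive and 26.4% negative, so a difference was common. Among the 92 members tested, 34.8% were positive and 3.26% negative. Some of the 17 were named for their small p in this same test. All values are differences of log2 fold changes, siPOLR3A minus ML60218. Positive differences were found for MT-ND2 (0.94), for NDUFA2 (0.49), NDUFB2 (0.47), NDUFB3 (0.45) and NDUFA11 (0.43) of complex I, for SDHD (0.31) of complex II and for UQCR10 (0.25) of complex III. In complex IV they were found for COX6C (0.46), COX7A2 (0.39), COX6B1 (0.34), COX8A (0.28) and COX6A1 (0.26), and in the ATP synthase for ATP5F1D (0.42) and ATP5MC3 (0.32). Negative differences were found for NDUFB10 (-1.20), NDUFB9 (-0.67) and NDUFB5 (-0.22). Over 22 alternatives the COX6B1 difference was not called in 11 (adjusted p up to 0.09), the NDUFB5 difference in 3, and those of MT-ND2, COX7A2 and ATP5F1D in 1 each, and the other 12 were called in all. For COX6C, COX6A1, COX8A, NDUFB2, NDUFA11 and ATP5F1D the knockdown value was a called rise and the ML60218 value a called fall. For NDUFB10 and NDUFB9 both values were called falls, and for NDUFB5 the knockdown value alone was.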

How the results depend on the processing

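For the POLR3A knockdown, the 8 nuclear members called higher became 15 under upper quartile scaling, 13 under scaling by totals and 4 in DESeq2, and 5 to 7 with each library left out in turn. The median of the MT- genes was 0.0153 under upper quartile scaling, 0.0067 under scaling by totals, -0.0068 once the GC and length trend was removed, and from -0.0959 to 0.0529 with each library left out. The nuclear median was -0.0212 and -0.0311 under the same 2 scalings, and from -0.1023 to -0.0509 with each library left out. For ML60218 the 65 members called became 43 to 74 with each library left out, 43 of them without the first DMSO library. The cause was not tested. Single genes changed sign when the GC and length trend was removed: after knockdown NDUFA11 (-0.0757), ATP5F1D (-0.1319) and COX8A (-0.0234), and in the difference CYC1 (-0.1328). NDUFA11 was also at -0.0048 with the isoform length offset. Median TPM of nuclear members after rescaling to nuclear protein-coding genes were 290 in siControl, 241 in siPOLR3A, 323 in DMSO and 290 in ML60218, higher by construction. The replicate numbers are shared between groups, but same-numbered libraries did not deviate together (correlations from -0.123 to 0.0515), so the numbers are not read as pairs. With a replicate block the calls were 41 for siPOLR3A, 59 for ML60218 and 34 for the difference, and MT-ND2 was no longer called with ML60218. With ML60218 the standard errors of the MT- genes were 0.14 to 0.23 on the log2 scale, so changes of that size could not be called there.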

Other observations

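The control groups of the experiments differed in their mitochondrial reads. One had a control siRNA for 2 days and the other DMSO for 4 hours. MT-ND5 took 12.7%, 12.5% and 12.4% of the reads of the 13 MT- genes in siControl and 9.52%, 10.2% and 10.6% in DMSO. MT-ND4 took 14.8%, 14.4% and 14.3% in siControl and 12.5%, 12.5% and 12.4% in DMSO. MT-ND1 went the other way, at 3.04%, 2.99% and 3.09% in siControl and 3.80%, 3.92% and 3.93% in DMSO. With ML60218 the MT-ND1 shares were 3.09%, 2.97% and 2.68% and the MT-ND4 shares 13.5%, 13.7% and 14.1%, on the siControl side of the DMSO values. Experiment and control treatment cannot be told apart, and these values were not tested.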
